A study of Mus musculus with 6 samples.

Results

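The genes described are 10 transcription regulators grouped as AP-1, EGR and Myc immediate early factors. They are the FOS family members Fos, Fosb, Fosl1 and Fosl2, and the JUN family members Jun, Junb and Jund. The others are the zinc finger factor Egr1, the nuclear protein Ier2, and Myc. The group name is loose for Fosl1, Fosl2 and Jund, described below as later or steadier. The 10 genes were taken by gene symbol from the deposited count table, out of its 56691 gene rows. The rule that picks them uses only the symbol, and the set itself was put together with earlier results of these data known. All 10 passed the filter on low counts that left 15429 genes for testing.

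RNA was sequenced in bulk from primary cardiomyocytes of neonatal mice that had received an adenovirus of serotype 5 with the cardiac troponin T (cTNT) promoter, which is active in cardiomyocytes. In 3 libraries the virus was the vector alone (genotype given as control), and in the other 3 it carried HMGB2, a high mobility group protein that binds and bends DNA. Both groups therefore received virus and differ in the insert. The labels give no mouse strain, virus dose or collection time, nor whether the replicates came from separate cultures, isolations or animals, so each p-value rests only on the spread among these libraries, which may be technical. The comparison of the groups asks which transcripts differ when HMGB2 is delivered.

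Immediate early genes are transcribed soon after a stimulus reaches the cell, without new protein synthesis. Serum, growth factors, stretch and the dissociation of tissue are well-known stimuli. MAP kinases act through serum response factor (SRF) and its ternary complex partners to induce Fos and Egr1, and through JUN phosphorylation to raise AP-1 activity. AP-1 is a dimer of basic leucine zipper proteins: JUN proteins pair with themselves or with FOS proteins, and FOS proteins need a partner. FOSL1 and FOSL2 lack the strong activation domain of FOS and usually appear later and stay longer. EGR1 binds GC-rich sites and is held in check by NAB corepressors, while MYC pairs with MAX at E-boxes and drives genes of ribosome production and growth. In cardiac muscle, Fos, Jun, Egr1 and Myc are classical early responders to load and to hypertrophic agonists.

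Promoter windows of Fos, Jun and Junb are shown because Jun and Junb were lower with HMGB2 while Fos was not, and they carry the clearest sequence features. The windows are from RefSeq on GRCm38.p6, printed 5′ to 3′ on the gene's strand and ending just before the GENCODE start. Capitals mark TATAAA (the TATA box) in Fos and Junb, and TGACATCA in Jun, which was chosen after the sequences were seen and differs by a base from the cAMP response element TGACGTCA.
Fos, chr12:85473640-85473889, plus strand: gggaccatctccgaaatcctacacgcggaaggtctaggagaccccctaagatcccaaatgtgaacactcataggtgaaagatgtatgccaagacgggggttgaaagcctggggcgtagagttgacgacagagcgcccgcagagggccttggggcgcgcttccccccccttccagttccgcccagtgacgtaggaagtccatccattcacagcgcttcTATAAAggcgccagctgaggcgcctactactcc
Jun, chr4:95052223-95052472, minus strand: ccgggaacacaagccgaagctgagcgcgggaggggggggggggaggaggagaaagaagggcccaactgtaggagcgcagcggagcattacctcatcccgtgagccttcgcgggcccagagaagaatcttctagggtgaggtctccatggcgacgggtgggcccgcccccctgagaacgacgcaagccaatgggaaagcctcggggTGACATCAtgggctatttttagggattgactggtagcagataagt
Junb, chr8:84978719-84978998, minus strand: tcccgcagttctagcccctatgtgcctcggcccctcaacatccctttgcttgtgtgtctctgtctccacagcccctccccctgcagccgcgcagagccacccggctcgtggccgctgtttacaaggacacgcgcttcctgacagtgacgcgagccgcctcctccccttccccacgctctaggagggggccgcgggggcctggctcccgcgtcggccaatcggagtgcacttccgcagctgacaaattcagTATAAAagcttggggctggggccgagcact
Of the 10 genes, 6 have a RefSeq window of 250 bases before and 50 bases after the start (Fos, Fosb, Fosl2, Jun, Junb and Jund), and both strands were searched. TATAAA began 33 bases before the start in Fos and at the RefSeq start in Junb, which lies 30 bases before the GENCODE start, and it was found in 13.6% of 32851 windows of that length. TGACATCA began 45 bases before the Jun start and was found in 3.62% of windows. The EGR site GCGNGGGCG was found in the windows of Fosl2 (79 bases before the RefSeq start) and Fosb (50 bases before), against 5.55% of all windows. The RefSeq start of Fosl2 lies 671 bases inside the GENCODE gene, and that of Jund 1210 bases before it. None of the 6 windows held an exact match to TGANTCA (the AP-1 site), TGACGTCA, the E-box CACGTG or the CArG box of SRF, which were found in 7.81%, 1.79%, 7.15% and 1.63% of all windows. Sites farther upstream and other variant forms were not searched, so these promoters may still carry such elements. No match in these windows overlapped another.

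Library totals ran from 12498215 to 16618365 counts. Hmgb2 itself, the check of the labels, was 4.33-fold higher in the HMGB2 libraries (184 ± 10.9 against 42.6 ± 5.59 CPM, counts scaled to a common library size, SD, n = 3 each). Reads from the virus count together with those of the mouse gene as far as they align to it. In a principal component analysis of the 500 genes with the highest variance, the second component (14.3% of variance) set vector 1 (14.2) and HMGB2 3 (10.5) away from the other 4 libraries (-8.47 to -4.37). Over all genes tested with edgeR's quasi-likelihood test, 2224 were higher (14.4%) and 1662 lower (10.8%) with HMGB2 at an adjusted p under 0.05. Without 1 library, the number of lower genes fell to 973 (vector 2), 866 (HMGB2 1) and 897 (HMGB2 2), and it was 2986 without vector 1 and HMGB2 3 together.

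With HMGB2, 6 of the 10 factors fell, 0 rose and 4 did not pass the test, where 10.8% of all tested genes fell and 14.4% rose. At an unadjusted p under 0.05, 7 were lower and 0 higher, and DESeq2 also called 0 higher. Fosl1 fell 2.72-fold, and Fosl2, Jun, Junb, Egr1 and Myc had closely similar changes, from -19.99% in Jun to -19.1% in Myc. Fos, Fosb and Jund had fitted changes of -3.06% to -0.574% and did not pass the test, and Ier2 had a fitted change of -20.99% without passing it. All 3 HMGB2 libraries lay below all 3 vector libraries for 7 of the 10 (the 6 that fell, and Ier2), against 18.9% of all tested genes, and for 0 of the 10 they lay above, against 21.6%. The median log2 fold change of the 10 was -0.31, beside -0.0022 over all tested genes, whose middle 50% lay between -0.21 and 0.26. Summed over the 10, vector libraries held 864, 851 and 823 CPM and HMGB2 libraries 691, 719 and 666. Without 1 library the number that fell was 3 (vector 2), 4 (vector 3), 1 (HMGB2 1) and 4 (HMGB2 2), and Fosl1 was among those that fell in each of these fits. In bulk RNA, fewer cells of a type and less RNA per cell cannot be told apart.

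**Figure D1:**
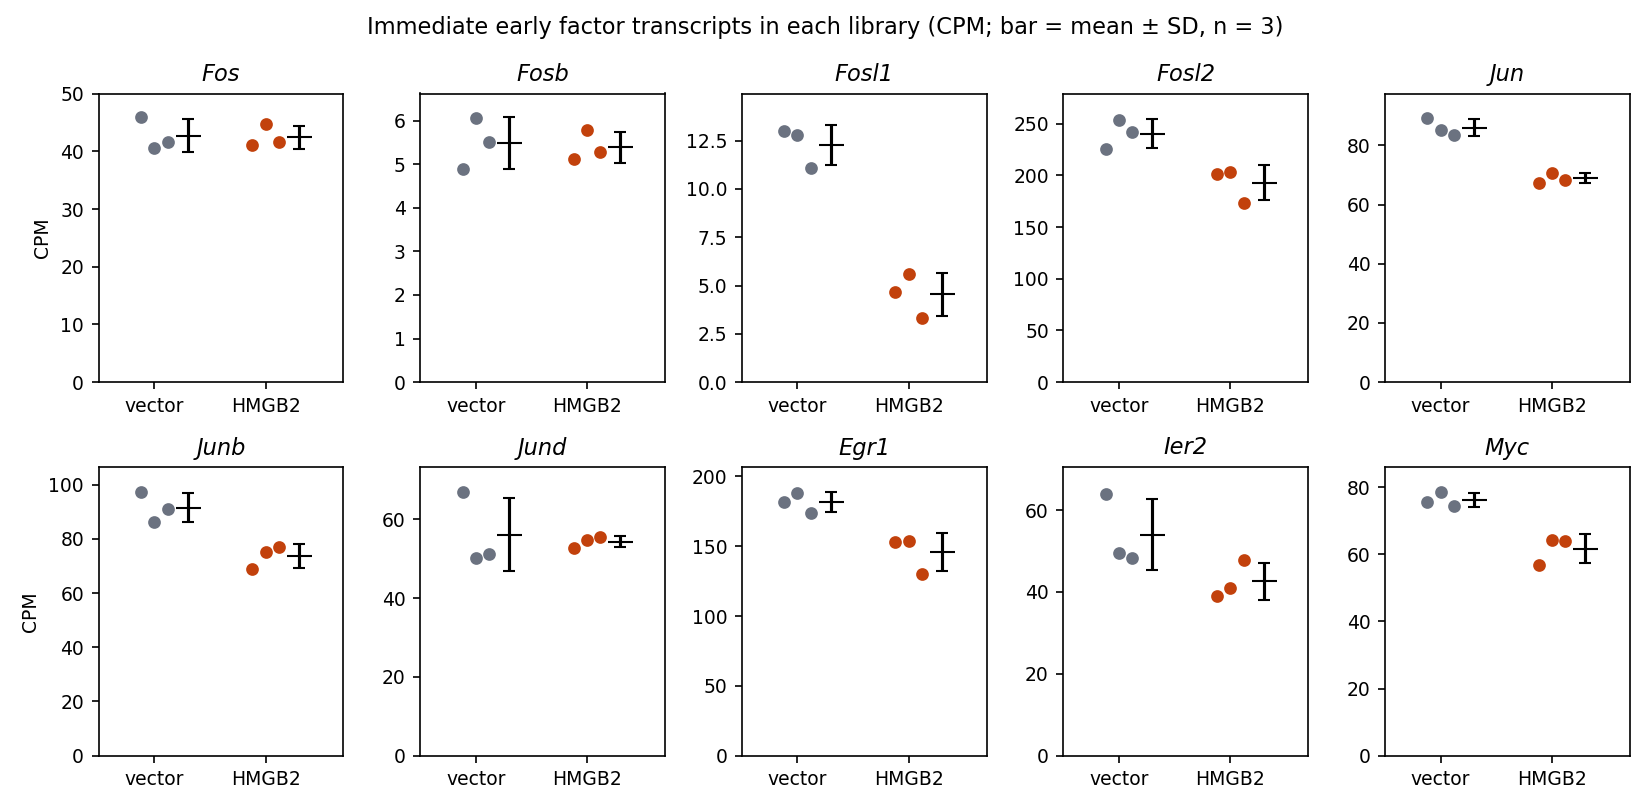
Level of each of the 10 factors in every library, in CPM (y axis from 0, a separate scale for each gene), with grey points for vector, orange points for HMGB2, and bars for mean ± SD (n = 3). Fosl1 lies at 3.33 to 5.59 with HMGB2 and 11.1 to 13.0 with vector, and Fos, Fosb and Jund overlap between the groups.

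Most cardiomyocyte markers were higher with HMGB2, and a minority of the markers of the other cell types in a heart preparation passed the test. Their part in the results was not tested. Over all tested genes, 14.4% rose and 10.8% fell. Of 12 cardiomyocyte markers all were present and 10 rose (median log2 fold change 0.72), with a summed level of 12270 to 14162 CPM in vector libraries and 22717 to 25297 in HMGB2 libraries. Ttn and Ryr2 did not pass the test. Both were lowest of their group in vector 1 (833 and 502 CPM) and HMGB2 3 (1273 and 952), and the cause was not tested. Of 8 fibroblast markers 2 fell (median -0.18, summed level 4954 to 5028 against 4404 to 4497), and of 6 endothelial markers 2 fell (median -0.16, 2460 to 2494 against 2127 to 2174). Of 8 macrophage markers 3 fell (median -0.65, 86.4 to 119 against 64.2 to 76.8). Lyz2 made up most of that sum (means of 72.5 CPM with vector and 48.3 with HMGB2). Ptprc, Adgre1, C1qa, C1qb and C1qc were near the floor, with group means of 3.58 CPM or less. Of 6 smooth muscle and pericyte markers 1 rose and 1 fell (median -0.02, 1239 to 1340 against 1215 to 1328), and of 5 epicardial markers 1 fell (median 0.02, 154 to 176 against 125 to 134). No marker had 0 counts over all libraries together, which alone does not show that a cell type was present. Summed fibroblast and endothelial markers were each at 2127 CPM or more in every library. RNA of cells other than cardiomyocytes is therefore likely, and these factors can also be transcribed in such cells.

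Of the FOS family, Fosl1 (ENSMUSG00000024912, chr19:5447547-5455946, plus strand, as for all genes here from GENCODE M21 on GRCm38) showed the widest difference. FOSL1, also called FRA1, is the AP-1 subunit best known from migrating and dedifferentiating cells. It held 13.0, 12.8 and 11.1 CPM in vector 1, 2 and 3, and 4.69, 5.59 and 3.33 in HMGB2 1, 2 and 3. The groups did not overlap, and the lowest library was HMGB2 3. This was a log2 fold change of -1.44 with an SE of 0.18 (edgeR BH-adjusted p = 0.000439), larger in size than that of 96.9% of all tested genes. The reads behind it numbered 162, 175 and 155 in the vector libraries and 78, 81 and 55 in the HMGB2 libraries. Leaving out single libraries gave log2 fold changes from -1.61 to -1.26 with adjusted p from 0.000206 to 0.00415. Exons of Fosl1 overlap those of Ccdc85b on the other strand over 1163 of 2033 bases, and the strand setting of the counting is not given in the sources used here, so reads of the pair cannot be told apart. Ccdc85b held 24.5 ± 5.29 and 23.3 ± 2.86 CPM (SD, n = 3) with a log2 fold change of -0.07 (edgeR BH-adjusted p = 0.802).

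Fosl2 (ENSMUSG00000029135, chr5:32135801-32157842, plus strand), which encodes the related FRA2, had the highest count of the FOS family. The vector libraries held 225, 253 and 242 CPM and the HMGB2 libraries 202, 204 and 173. Every HMGB2 library lay below every vector library, with HMGB2 3 again the lowest. The log2 difference was -0.32 (SE 0.09, edgeR BH-adjusted p = 0.0244), so it fell by 19.7%. It no longer passed on omitting a single library other than vector 1: the adjusted p was 0.101 without vector 2, 0.0706 without vector 3, and 0.0626, 0.0524 and 0.0686 without HMGB2 1, 2 and 3.

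Fos (ENSMUSG00000021250, chr12:85473890-85477273, plus strand), the prototype of the family, held 46.0, 40.6 and 41.6 CPM with vector and 41.1, 44.8 and 41.6 with HMGB2. The groups overlapped, and the highest library was vector 1. The difference was -0.01 on the log2 scale (SE 0.08, edgeR BH-adjusted p = 0.956), and the 95% interval of the change ran from -12.6% to 13.2%. The sign of this small difference turned in 9 of 19 other fits, among them the scaling by library totals alone.

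Fosb (ENSMUSG00000003545, chr7:19302696-19310051, minus strand), a close relative of Fos, was the least abundant when levels were scaled by gene length. It held 4.89, 6.06 and 5.51 CPM with vector and 5.11, 5.79 and 5.27 with HMGB2, from 61 to 87 reads per library. The ranges overlapped, with a log2 difference of -0.03 (SE 0.15, edgeR BH-adjusted p = 0.913) and a 95% interval of -22.7% to 24.2%. That interval includes a fall of the size seen in Jun or Myc, so such a fall in Fosb is not excluded.

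**Figure D2:**
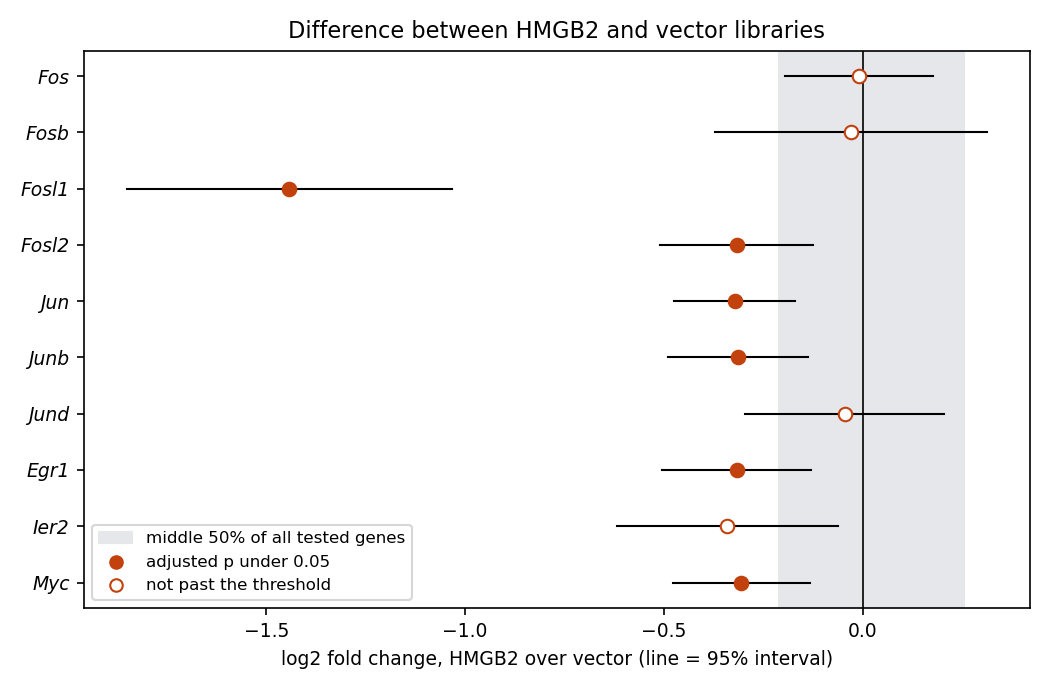
Log2 fold change of each factor, HMGB2 over vector (x axis), with its 95% interval as a line, filled points for an adjusted p under 0.05 and a grey band for the middle 50% of all tested genes. Fosl1 lies at -1.44, 5 others that fell lie between -0.32 and -0.30, and Fos, Fosb and Jund lie inside the band.

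In the JUN family, Jun and Junb fell and Jund did not pass the test. Jun (ENSMUSG00000052684, chr4:95049034-95052222, minus strand) encodes the subunit that activates transcription most strongly and acts on its own promoter through AP-1-like sites. Its level was 89.2, 85.4 and 83.6 CPM in the vector libraries and 67.4, 70.7 and 68.5 in the HMGB2 libraries. The spread within each group was narrow and the groups were well apart. The log2 fold change was -0.32 (SE 0.07, edgeR BH-adjusted p = 0.0077), so it fell by 19.99%. Without HMGB2 1 the adjusted p was 0.0502, and each other single library could be left out with the call kept.

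Junb (ENSMUSG00000052837, chr8:84974484-84978718, minus strand), which often restrains JUN on shared sites, held 97.3, 86.4 and 91.2 CPM with vector and 68.8, 75.4 and 77.0 with HMGB2. All HMGB2 libraries were lower than all vector libraries. It was lower by a log2 difference of -0.31 (SE 0.08, edgeR BH-adjusted p = 0.0178). Omitting vector 3 (adjusted p = 0.0521), HMGB2 1 (0.0945) or HMGB2 2 (0.0586) ended the call. Junb shares 173 exonic bases with Prdx2 on the other strand (184 ± 24.5 and 192 ± 25.4 CPM, edgeR BH-adjusted p = 0.765), and Jun shares 232 with Junos (0.673 and 0.869 CPM), so some reads of these pairs cannot be told apart.

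Jund (ENSMUSG00000071076, chr8:70698949-70700616, plus strand) is the JUN gene with the steadiest transcription in most cells. It held 66.9, 50.2 and 51.3 CPM with vector and 52.8, 54.7 and 55.5 with HMGB2. Only vector 1 stood above the HMGB2 libraries, and the other vector libraries stood below all of them. The log2 fold change was -0.04 (SE 0.11, edgeR BH-adjusted p = 0.812) with a 95% interval of -18.5% to 15.3%, and without vector 1 it was 0.10. Jund shares 877 of its exonic bases with Gm11175 on the other strand, which was not among the tested genes.

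Egr1 (ENSMUSG00000038418, chr18:34859823-34864984, plus strand) fell. The vector libraries held 182, 188 and 174 CPM, and the HMGB2 libraries 153, 154 and 130. The groups did not overlap, and HMGB2 3 was the lowest, as in Fosl1 and Fosl2. The log2 fold change was -0.32 (SE 0.08, edgeR BH-adjusted p = 0.0221), and omitting vector 2 (adjusted p = 0.0895), HMGB2 1 (0.0532) or HMGB2 3 (0.0579) ended the call.

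Ier2 (ENSMUSG00000053560, chr8:84661331-84662852, minus strand) encodes a small nuclear protein induced together with Fos and Egr1. It held 64.0, 49.5 and 48.4 CPM with vector and 39.0, 41.0 and 47.8 with HMGB2. The groups were apart only narrowly, because HMGB2 3 came close to vector 3. At -0.34 on the log2 scale (SE 0.12) it missed the threshold (edgeR BH-adjusted p = 0.0758), although its size was no smaller than that of Jun, and the 95% interval ran from -34.9% to -4.12%. Without HMGB2 3 it passed, at an adjusted p of 0.0405. Vector 1 and HMGB2 3, set apart by the second component, were each the highest of their group for Ier2. They lay 0.39 and 0.26 on the log2 scale above the mean of the other libraries of their group. Jund in vector 1 deviated by 0.40 in the same way.

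Myc (ENSMUSG00000022346, chr15:61985391-61990374, plus strand) fell by 19.1%. Its levels were 75.5, 78.5 and 74.4 CPM with vector and 56.7, 64.3 and 63.9 with HMGB2. No HMGB2 library reached the lowest vector library. The log2 fold change was -0.30 (SE 0.08, edgeR BH-adjusted p = 0.0179), and omitting vector 2 (adjusted p = 0.0748) or HMGB2 1 (0.0965) ended the call.

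**Figure D3:**
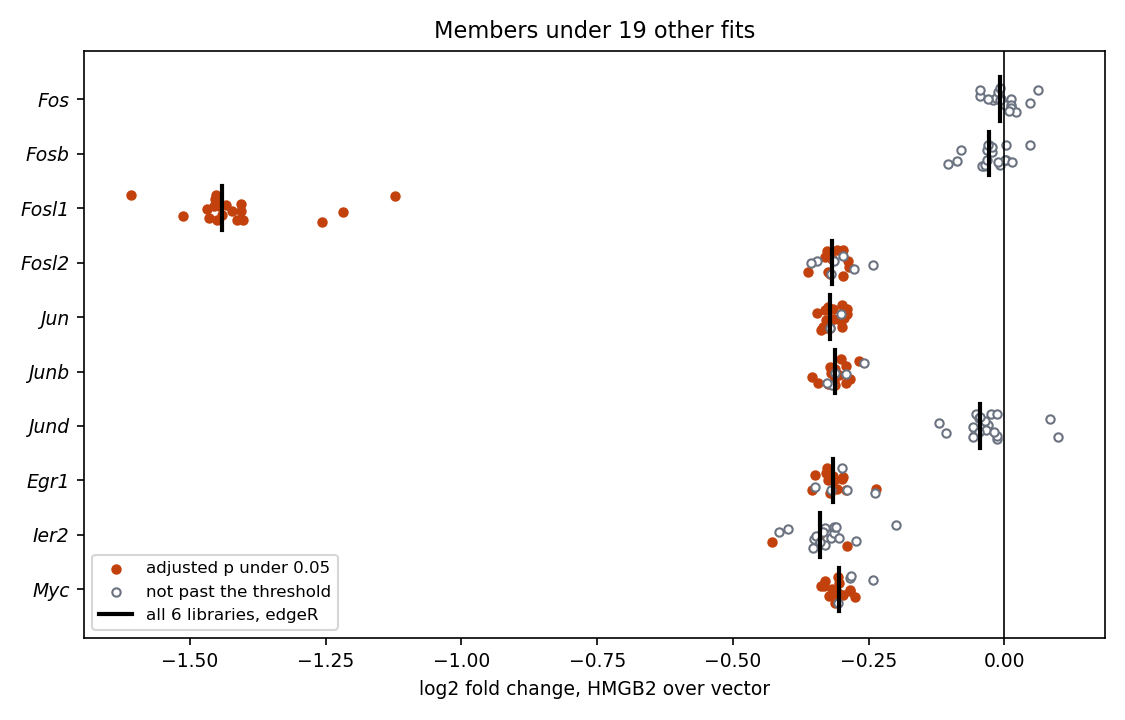
Log2 fold change of each factor (x axis) under 19 other fits (points, filled where the adjusted p was under 0.05) beside the edgeR value from all 6 libraries (black bar). Fosl1 is filled in all 19, Jun in 17, Myc in 15, Egr1 and Junb in 14, Fosl2 in 12 and Ier2 in 3, and Fos, Fosb and Jund in 0.

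Levels of different genes were compared per length, on the deposited FPKM scale (fragments scaled by gene length and library total). In the vector libraries Egr1 (40.1), Junb (39.5), Ier2 (35.1) and Jund (33.4) were highest, and neighbours among these 4 overlapped between libraries. Myc (27.8) and Jun (26.7) followed and overlapped, then came Fosl2 (24.6), Fos (18.01), Fosl1 (5.99) and Fosb (0.87), each apart from the next. With HMGB2 the upper 4 again overlapped (Jund 32.8, Egr1 32.6, Junb 32.2 and Ier2 28.1), followed by Myc (22.8) and Jun (21.7). Fosl2 (20.01) and Fos (18.2) now overlapped, above Fosl1 (2.24) and Fosb (0.87).

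Shares within each AP-1 family are given on the same FPKM scale. Summed FPKM of the 4 FOS genes was 49.5 ± 0.765 with vector and 41.3 ± 2.57 with HMGB2 (SD, n = 3 each). Fosl1 made up 12.1% ± 0.863 of that sum with vector and 5.39% ± 1.01 with HMGB2, while the share of Fos was 36.4% ± 2.57 and 44.0% ± 2.22. Fosl2 took 49.7% ± 2.79 and 48.5% ± 1.69, the largest share in both groups. The 3 JUN genes summed to 99.6 ± 9.23 and 86.7 ± 3.46 FPKM, with Jund at 33.4% ± 2.59 and 37.8% ± 0.464 of the sum. The ratio of the FOS sum to the JUN sum was 0.499 ± 0.0426 with vector and 0.477 ± 0.0393 with HMGB2, a difference within the spread of the libraries. With 3 libraries against 3, an exact permutation test has 0.1 as its smallest two-sided p, and none was run on these shares.

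**Figure D4:**
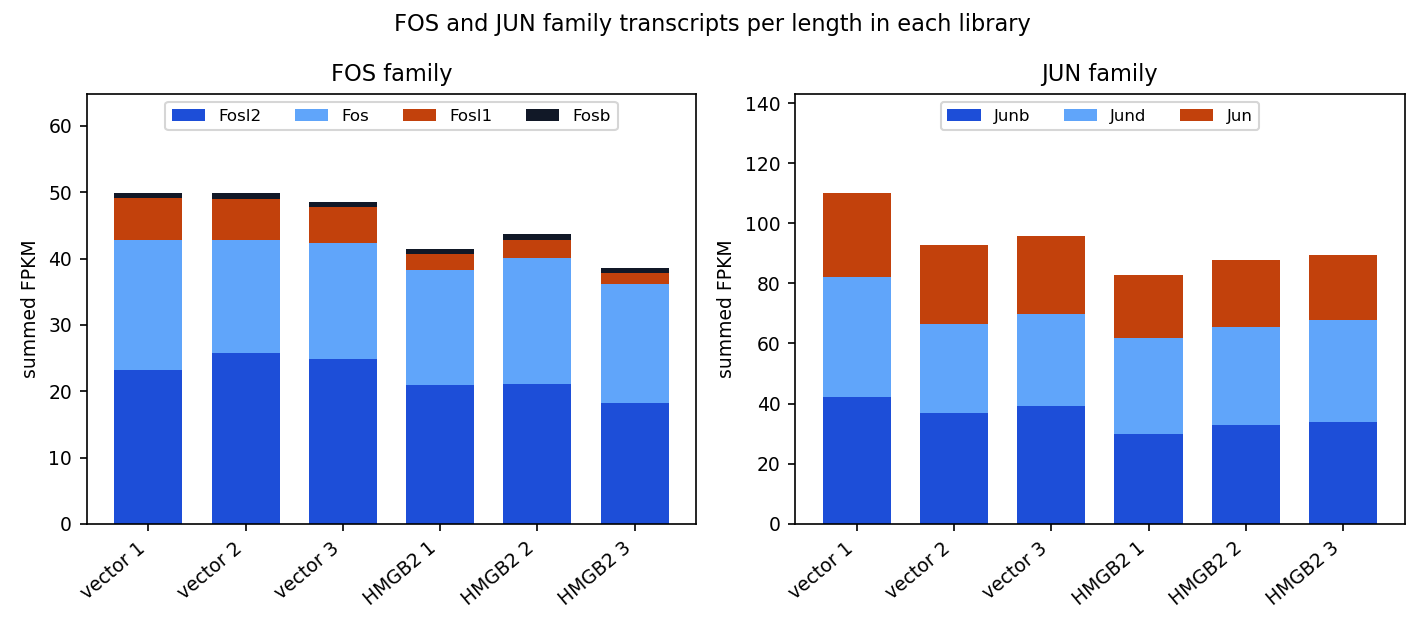
Summed FPKM of the FOS genes (left) and the JUN genes (right) in each library (x axis), stacked by gene from 0. The FOS stacks reach 48.6 to 49.9 with vector and 38.6 to 43.7 with HMGB2, with a thinner Fosl1 layer, and the JUN stack of vector 1 is the highest at 110.

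Other leucine zipper genes, some of which can pair with AP-1 subunits or share their sites, fell more often than they rose. Of 24 tested, 7 fell, 1 rose and 16 did not pass, with a median log2 fold change of -0.22. Among all tested genes 10.8% fell and 14.4% rose. Atf3, a stress-induced repressor that dimerises with JUN, fell from 37.6 ± 4.801 to 19.3 ± 0.624 CPM (SD, n = 3 each, log2 fold change -0.96, edgeR BH-adjusted p = 0.000208). Creb5 fell by 0.64 and Mafk, a small MAF protein, by 0.43 on the log2 scale. Batf2 rose by 2.44 on that scale from a very low level (0.248 to 1.38 CPM, edgeR BH-adjusted p = 0.00306). The number that fell was 4 without vector 2 or vector 3, and 3 without HMGB2 1 or HMGB2 2.

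The EGR relatives and their corepressors showed falls beside that of Egr1. Of 5 tested genes 3 fell and 0 rose (also 0 at an unadjusted p under 0.05), with a median log2 fold change of -0.55. Among all tested genes 10.8% fell and 14.4% rose. Egr4 had too few reads to be tested. Nab2, a corepressor that EGR1 itself induces, fell from 38.9 ± 0.660 to 26.6 ± 1.58 CPM (SD, n = 3 each, log2 fold change -0.55, edgeR BH-adjusted p = 0.00123). Egr2 had 8.55 and 5.65 CPM (log2 fold change -0.59, edgeR BH-adjusted p = 0.0246), a call that ended on omitting vector 1 (adjusted p = 0.0592), vector 2 (0.0552), HMGB2 1 (0.0732) or HMGB2 2 (0.0917). Egr3 had 3.24 and 1.89 CPM (-0.78, edgeR BH-adjusted p = 0.0213), a call that ended on omitting vector 2 (0.0545), vector 3 (0.0621), HMGB2 2 (0.0673) or HMGB2 3 (0.0629). The number that fell was 1 without vector 2 or HMGB2 2, and 2 without any other single library. DESeq2 called 2 lower and 0 higher, with Egr3 at an adjusted p of 0.0813.

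Among 32 other immediate early genes, 16 fell, 2 rose and 14 did not pass the test, with a median log2 fold change of -0.29. The shares over all tested genes were 10.8% lower and 14.4% higher. Arc, an early gene best known from neurons, fell most of the named ones, from 9.85 ± 0.944 to 3.31 ± 0.481 CPM (SD, n = 3 each, log2 fold change -1.56, edgeR BH-adjusted p = 0.000132). The matricellular gene Ccn1, also called Cyr61, fell from 624 ± 47.6 to 363 ± 14.9 CPM (-0.78, edgeR BH-adjusted p = 0.000113). Gadd45b, a stress sensor upstream of p38, fell by 1.01 and Zfp36l2, an RNA-binding protein that promotes mRNA decay, by 0.48 on the log2 scale. Npas4 and Klf2 were the 2 that rose (log2 fold changes 1.02 and 0.36), and they are named here after their values were seen. The number that fell was 8 without HMGB2 1 and 9 without HMGB2 2. The number that rose was 0 without HMGB2 1 and 1 without vector 2, vector 3, HMGB2 2 or HMGB2 3. DESeq2 called 15 lower and 1 higher.

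**Figure D5:**
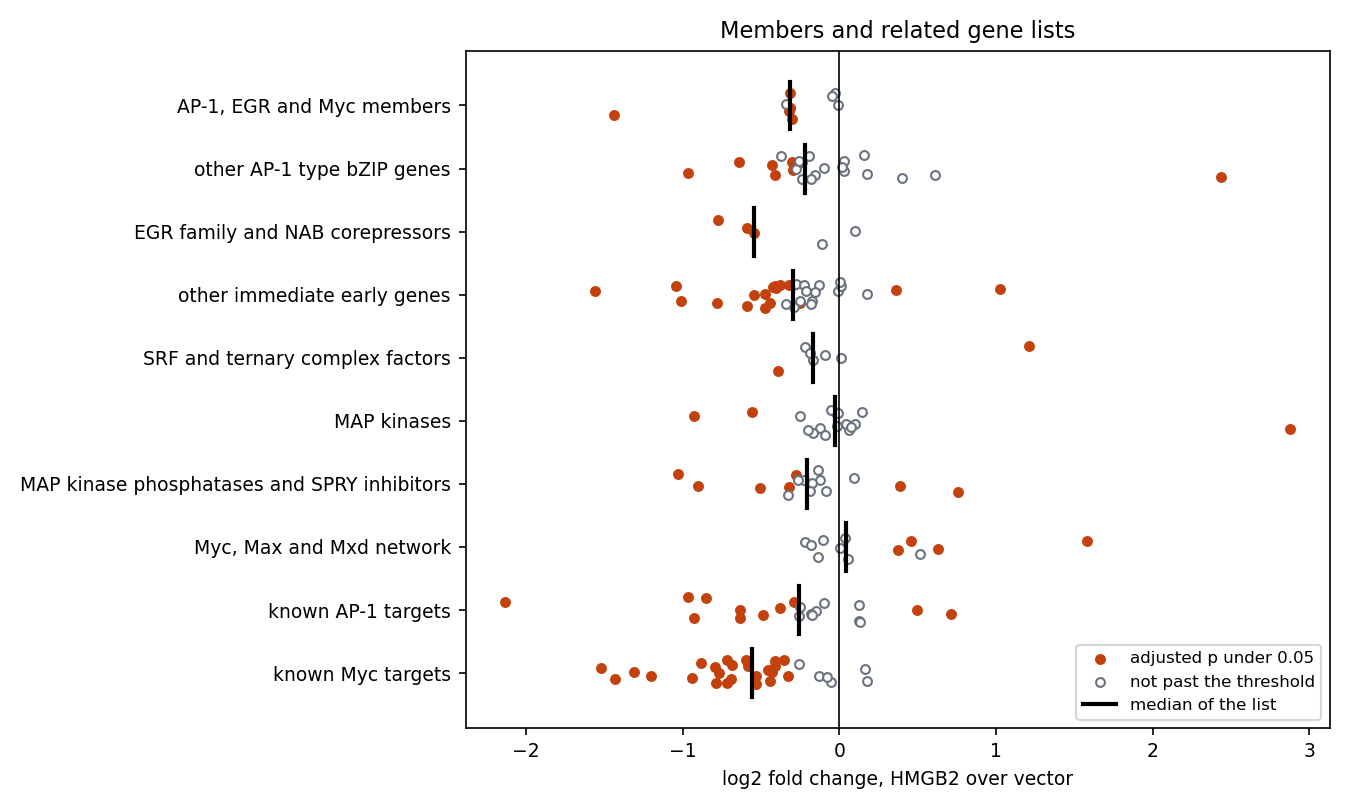
Log2 fold change (x axis, HMGB2 over vector) of every tested gene in the 10 factors and in 9 related lists, filled where the adjusted p was under 0.05, with a black bar at each list's median. The known Myc targets have the lowest median (-0.56), the 10 factors lie at -0.31, and the Myc, Max and Mxd network lies at 0.04.

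Upstream of the early genes, transcripts of SRF and its partners mostly did not pass the test. Of 7 tested genes 1 rose and 1 fell, with a median log2 fold change of -0.17. These counts are near the shares over all tested genes, 14.4% higher and 10.8% lower. The coactivator of the cardiac lineage, Myocd, rose from 23.7 ± 7.21 to 55.0 ± 11.98 CPM (SD, n = 3 each, log2 fold change 1.21, edgeR BH-adjusted p = 0.00529), beside the rise of cardiomyocyte markers. Mrtfa, the actin-regulated coactivator, had a log2 fold change of -0.39 (edgeR BH-adjusted p = 0.0348), and its call was lost without vector 2 (0.0551), vector 3 (0.126), HMGB2 2 (0.118) or HMGB2 3 (0.0927). In this list the number that fell was 0 without any of those 4 libraries and 2 without vector 1.

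Of 17 MAP kinases and their kinases, 14 did not pass the test, 2 fell and 1 rose, with a median log2 fold change of -0.03. Over all tested genes 10.8% fell and 14.4% rose, so these counts do not set the list apart. Map2k3, which activates p38, fell from 195 ± 18.8 to 103 ± 5.99 CPM (SD, n = 3 each, log2 fold change -0.93, edgeR BH-adjusted p = 7.79e-05). Mapk11, encoding p38 beta, fell by 0.56 on the log2 scale (edgeR BH-adjusted p = 0.00353). Mapk10, encoding JNK3, rose from 0.318 ± 0.140 to 2.44 ± 0.707 CPM (2.88, edgeR BH-adjusted p = 0.00099). These are levels of mRNA and say nothing of kinase activity.

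The phosphatases and Sprouty proteins that switch MAP kinases off moved in both directions. Of 16 tested, 5 fell, 2 rose and 9 did not pass, with a median log2 fold change of -0.21. The shares over all tested genes were 10.8% lower and 14.4% higher. Spry4 rose from 49.5 ± 2.15 to 83.7 ± 7.23 CPM (SD, n = 3 each, log2 fold change 0.76, edgeR BH-adjusted p = 0.000216). Dusp1, a nuclear phosphatase and itself an immediate early gene, rose from 54.9 ± 4.19 to 71.7 ± 3.45 CPM (0.39, edgeR BH-adjusted p = 0.00777). Dusp8, which acts on JNK and p38, fell by 0.90 on that scale, and Spry1 by 0.51 with an edgeR BH-adjusted p of 0.0285. The call of Spry1 was lost without vector 2 (0.0564), vector 3 (0.0922), HMGB2 2 (0.105) or HMGB2 3 (0.0752). Dusp9, Dusp5 and Dusp16 also fell (-1.03, -0.32 and -0.28), named after their values were seen. The number that fell was 1 without vector 2 or vector 3, and 2 without any one of the HMGB2 libraries. DESeq2 called 2 lower and 2 higher, with Spry1 at an adjusted p of 0.0656.

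In the network around MYC, rises outnumbered falls, beside 14.4% rises and 10.8% falls over all tested genes. Of 12 tested genes 4 rose, 0 fell (also 0 at an unadjusted p under 0.05 and with DESeq2) and 8 did not pass, with a median log2 fold change of 0.04. At an adjusted p under 0.05 the 4 also rose in each fit that left out 1 library. Mxi1, an antagonist that competes with MYC for MAX, rose from 22.4 ± 1.44 to 34.6 ± 1.69 CPM (SD, n = 3 each, log2 fold change 0.63, edgeR BH-adjusted p = 0.000903). The related antagonists Mxd1 and Mxd4 rose by 0.45 and 0.37 on the log2 scale. Mlxipl, encoding the glucose-responsive factor ChREBP, rose from 1.502 ± 0.746 to 4.56 ± 0.962 CPM (1.58, edgeR BH-adjusted p = 0.00604).

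Genes known as AP-1 targets were lower more often than higher. Of 20 tested of 22 listed, 9 fell, 2 rose and 9 did not pass, with a median log2 fold change of -0.26. Among all tested genes 10.8% fell and 14.4% rose. Hmox1, the inducible haem oxygenase, fell 4.40-fold, from 1451 ± 158 to 330 ± 20.3 CPM (SD, n = 3 each, log2 fold change -2.14, edgeR BH-adjusted p = 1.42e-06). Cd44, a hyaluronan receptor, fell from 304 ± 3.89 to 156 ± 2.72 CPM (-0.96, edgeR BH-adjusted p = 9.53e-06). Hbegf, a growth factor of the EGF family, and Plaur, the urokinase receptor, fell by 0.85 and 0.93 on the log2 scale. Mmp3 and Vegfa were the 2 that rose (0.71 and 0.50), named after their values were seen. Only 1 rose when vector 2, vector 3, HMGB2 2 or HMGB2 3 was omitted. Many of these genes also answer to other factors, and no binding was measured.

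Genes known as MYC targets, mostly of ribosome production, had the largest share of falls among the 9 lists. Of 30 tested, 24 fell, 0 rose (also 0 at an unadjusted p under 0.05 and with DESeq2) and 6 did not pass, with a median log2 fold change of -0.56. Between 21 and 24 fell when single libraries were left out. Over all tested genes 10.8% fell and 14.4% rose. Rrp12, which exports ribosomal subunits, fell from 96.0 ± 1.68 to 35.6 ± 1.42 CPM (SD, n = 3 each, log2 fold change -1.43, edgeR BH-adjusted p = 1.89e-06). Hspd1, the mitochondrial chaperonin HSP60, fell from 851 ± 71.0 to 296 ± 19.4 CPM (-1.52, edgeR BH-adjusted p = 3.6e-06). The nucleolar genes Rrp9 and Nolc1 fell by 1.20 and 0.94. These 4 are named for the smallest p in the list, so the sizes of their falls do not stand for the list. The 6 that did not pass had log2 fold changes from -0.26 (Cdk4) to 0.17 (Ldha). Without vector 1 the number of listed targets that rose was 1. These genes can also answer to other factors, and neither MYC binding nor MYC activity was measured. The list was put together with earlier results of these data known.

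Across the 6 libraries, the genes whose log2 CPM followed Fos, Egr1 and Myc most closely among 12221 candidates differed between the 3. For Fos they were Psmf1 (Pearson r = 0.983), Baiap2, Wdr24, Grap and Nutf2-ps1, and 19 candidates had an r above 0.9. For Egr1 they were Avpr1a (r = 0.999), Atxn7, Ralgds, Adam8 and Smg9, with 432 above 0.9. For Myc they were Kat2a (r = 0.999), Snn, Tollip, R3hcc1l and Vps4b, with 639 above 0.9. These values describe 6 libraries that share the group difference and the libraries that stood apart, and carry no test.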

How the data were processed

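Per the labels' protocols, TRIzol served for extraction of total RNA and a VAHTS Universal V5 kit for the libraries. The submitters' processing notes name HISAT2 2.2.1, HTSeq 0.6.1, StringTie 1.3.3b, FastQC 0.10.1 and mm10, without roles. The authors deposited raw gene counts and, for the same genes, FPKM values. The positions in the tables matched GENCODE M21 for 1472 of 52073 shared identifiers and were not printed. The columns carry abbreviations that were matched to samples by group and replicate number.

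The counts entered edgeR 4.0.16 (R 4.3.3, filterByExpr with a minimum count of 10 and total of 15, TMM scaling with factors from 0.986 to 1.016, robust quasi-likelihood F-test, group as the only term), with Benjamini-Hochberg adjustment over 15429 genes and a threshold of 0.05. CPM use TMM-scaled totals, the SE is derived from the fold change and F, and 95% intervals use the fit's degrees of freedom. The deposited FPKM values served for levels per length and, on log2(FPKM + 0.1), as alternatives with limma 3.58.1. DESeq2 1.42.0 was another alternative.

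The 10 factors and the lists were chosen with earlier results of these data known. Named list genes are up to 4 past the threshold with the smallest p per list, and genes alike in pattern are the 5 with the highest r and a mean log2 CPM of at least 1. At 95% identity, BLAST 2.17.0 was run with the longest transcript of each factor. It found stretches of Fosl1, Jun and Jund in Ccdc85b, Junos and Gm11175, which overlap them on the other strand. For the other 7 factors it found no match in another gene. That does not exclude shared bases, since Junb shares 173 exonic bases with Prdx2 on the other strand.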

Additional observations from a re-analysis of the deposited data

How the results depend on the processing

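Among the 19 alternatives, Fosl1 fell in all 19, Jun in 17, Myc in 15, Junb and Egr1 in 14 each, Fosl2 in 12 and Ier2 in 3. The number of the 10 factors that fell was 6 in the reported fit, 2 with limma on log2(FPKM + 0.1) and no filter, and 1 to 6 when single libraries were left out, and the number that rose was 0 in every alternative. Over all genes, log2(FPKM + 0.1) with no filter gave 1475 higher and 741 lower, single libraries left out gave 1567 to 2526 higher and 866 to 1960 lower, and vector 1 and HMGB2 3 left out together gave 3265 higher and 2986 lower. The labels do not say whether a shared replicate number marks a pair of libraries. Deviations from the group means had correlations of -0.32, 0.23 and -0.37 for same-numbered libraries, and 0.52 for vector 1 with HMGB2 3. With 3 libraries per group, these values cannot decide whether the numbers mark pairs. With a replicate block, 1459 genes were higher and 754 lower, and 1 of the 10 factors fell (Fosl1, adjusted p = 0.00215).

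The log2 fold change of Fos turned to 0.0116 (library totals only), 0.000499 (minimum count 50), 0.0125 (log2(FPKM + 0.1), with and without a filter), 0.0118 (log2(FPKM + 1)), and 0.0621 without both vector 1 and HMGB2 3, and single libraries left out gave -0.0448 to 0.0475. Fosb turned to 0.0026 (log2(FPKM + 0.1), with and without a filter), 0.00069 (log2(FPKM + 1)), and single libraries left out gave -0.103 to 0.0472. Jund turned to 0.0846 without both vector 1 and HMGB2 3, and single libraries left out gave -0.12 to 0.0992. The cause of these shifts was not tested, and each of these values was small and did not pass the threshold. Depth limits Fosb (61 to 87 reads per library) and Fosl1 (55 to 175). For the related lists, alternatives were added after the data were seen. With the replicate block, falls went from 7 to 3 (other leucine zipper genes), 3 to 1 (EGR and NAB), 16 to 9 (other immediate early genes), 5 to 1 (phosphatases and Sprouty) and 1 to 0 (SRF partners), and rises from 2 to 0 (other immediate early genes) and 2 to 1 (AP-1 targets). The block also ended the calls of Egr2 (adjusted p = 0.0622), Egr3 (0.0717), Mrtfa (0.099), Spry1 (0.0712) and Mxd4 (0.0505). Without both vector 1 and HMGB2 3, falls went to 11 (other leucine zipper genes), 9 (phosphatases and Sprouty) and 4 (SRF partners), and rises to 2 (other leucine zipper genes), 4 (AP-1 targets) and 1 (MYC targets), and Egr3 was no longer called (0.0548). DESeq2 moved the falls of phosphatases and Sprouty genes from 5 to 2 and the rises of other immediate early genes from 2 to 1.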
